A study of Homo sapiens with 7 samples.

Results

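A set of 8 mature miRNAs named in the literature for white blood cells and vessel lining were read in small extracellular vesicles (sEVs) of HepG2, a human liver cancer cell line. They were picked by name from the 2656 mature miRNAs counted, with earlier results of these data known. The 6 leukocyte miRNAs were hsa-miR-223-3p, hsa-miR-142-5p, hsa-miR-142-3p, hsa-miR-150-5p, hsa-miR-146a-5p and hsa-miR-342-3p, and the 2 endothelial miRNAs were hsa-miR-126-3p and hsa-miR-126-5p (written without the human prefix below). All 8 had counts in at least 1 library. The small RNA-seq comprised 3 libraries of sEVs from cells with a control short hairpin RNA (shCTR) and 4 from cells with one against the RNA-binding protein SYNCRIP (shSYNCRIP). Per the methods of the study, cells were infected with lentiviral vectors, selected with puromycin and induced with doxycycline, only 1 hairpin sequence against SYNCRIP was used, and the medium held fetal bovine serum depleted of sEVs. The titles and the design text name HepG2 for all 7 libraries, although a cell line field of the labels runs from HepG2 to HepG8. The SYNCRIP transcript is not among the rows of a miRNA table, so the silencing could not be checked in these data.

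A miRNA is cut from a hairpin precursor whose 5′ and 3′ sides each can give a mature strand, named 5p and 3p. The strand held by an Argonaute protein guides silencing of mRNAs, mainly through its seed, bases 2 to 8, and cells release part of their miRNAs in vesicles. miR-223 is abundant in neutrophils, monocytes and platelets, and miR-142 in nearly all blood lineages. miR-150 and miR-342 are best known from lymphocytes, miR-146a restrains NF-κB signalling in immune cells, and miR-126 sits in a gene of endothelial cells and maintains vessel integrity.

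The mature sequences are shown because the counts rest on reads matching them, and because both strands of a pair of hairpins are compared. miR-150-5p had no entry in the sequence source used, so its sequence was not examined. For the other 7 of the 8 miRNAs the RefSeq sequences (GRCh38.p14) follow, and capitals mark the seed:
miR-223-3p: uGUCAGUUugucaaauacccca
miR-142-5p: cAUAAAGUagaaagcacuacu
miR-142-3p: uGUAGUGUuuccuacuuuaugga
miR-146a-5p: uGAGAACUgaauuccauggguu
miR-342-3p: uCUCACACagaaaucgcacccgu
miR-126-3p: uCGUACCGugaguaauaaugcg
miR-126-5p: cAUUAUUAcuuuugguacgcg

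No seed was shared between these 7. miR-146a-5p shared its seed with miR-146b-5p and miR-7153-5p, and miR-142-5p with miR-5590-3p. By edit distance, the nearest other mature human miRNA lay 3 changes from miR-146a-5p (miR-146b-5p) and 7 or 8 from each of the others. Of these 7, miR-146a-5p is therefore the member whose reads are most open to sharing with a near copy. How reads fitting several miRNAs were assigned is not given in the sources used here.

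In the 2 hairpins below, capitals mark the mature strands, the 5p strand first. MIR142 occupies chr17:58331232-58331318 on the minus strand and MIR126 chr9:136670602-136670686 on the plus strand (GRCh38.p14):
MIR142: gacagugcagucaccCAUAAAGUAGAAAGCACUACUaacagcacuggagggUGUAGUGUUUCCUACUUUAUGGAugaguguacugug
MIR126: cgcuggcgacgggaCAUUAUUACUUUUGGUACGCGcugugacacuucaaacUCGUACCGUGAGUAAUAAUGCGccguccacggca

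In GENCODE release 29 (GRCh38), MIR126 lies in an intron of EGFL7 and MIR342 in an intron of EVL, both on the strand of the host gene. The miR-342-3p strand is at chr14:100109715-100109737. miR-142-5p (chr17:58331283-58331303) and miR-142-3p (chr17:58331245-58331267) fall in an exon of the noncoding gene AC004687.1. miR-146a-5p (chr5:160485372-160485393, plus strand) falls in an exon of the noncoding MIR3142HG, and miR-223-3p (chrX:66018937-66018958, plus strand) in an exon of the noncoding AL034397.3.

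The study links export by SYNCRIP to a short sequence element named hEXO and, beyond sequence, to m6A methylation of the miRNA, which these counts do not measure. The element was searched on the miRNA strand after the first 7 bases, as 3 bases other than C, then a base other than U, then A or U, then C or G. It was present in 4 of the 7 sequences, first as AGAAAG at position 9 of miR-142-5p, UUUAUG at position 16 of miR-142-3p, GAAAUC at position 10 of miR-342-3p and AUAAUG at position 15 of miR-126-3p, counted from the 5′ end. It was not found in the searched bases of miR-223-3p, miR-146a-5p and miR-126-5p. The element is loose: 63.6% of 2370 mature human miRNAs and 61.9% of the 105 tested miRNAs with a sequence held it, against 57.1% of these 7.

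The libraries held between 29863 and 388226 miRNA counts, with shSYNCRIP replicate 2 the shallowest, and between 100 and 275 detected miRNAs, with shSYNCRIP replicate 4 the fewest. Both libraries stood apart for the 8 miRNAs. shSYNCRIP replicate 4 detected 2 of the 8, shSYNCRIP replicate 2 detected 5, and the other 5 libraries detected 7 or 8. A count of 0 allowed a share of up to 0.01% of the counts in shSYNCRIP replicate 2 and up to 0.00261% in shSYNCRIP replicate 4, for counting error only, since amplified reads are not independent molecules. Values are given below as raw counts and as CPM, counts relative to a library size scaled by TMM, a factor taken from the bulk of the miRNAs. Fewer vesicles carrying a miRNA and less of it per vesicle cannot be told apart.

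The leukocyte miRNAs are described first. miR-150-5p, which limits the transcription factor MYB in lymphocytes, had 753, 1469 and 1889 counts in shCTR replicates 1 to 3 and 1357, 120, 2031 and 0 in shSYNCRIP replicates 1 to 4. The shCTR libraries averaged 7482 ± 2661 CPM (SD, n = 3) and the shSYNCRIP libraries 5545 ± 4408 CPM (SD, n = 4). The groups overlapped, with shSYNCRIP replicates 1 and 3 at 8226 and 9829 CPM inside the shCTR range and only shSYNCRIP replicate 4 without a count. In the 6 libraries that held it, it ranked between 25 and 51 among all miRNAs.

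miR-223-3p, the granulocyte miRNA, had 202, 1183 and 2776 counts in shCTR and 176, 0, 914 and 364 in shSYNCRIP. It averaged 5803 ± 3365 CPM (SD, n = 3) and 2283 ± 2091 CPM (SD, n = 4). shCTR replicate 1, at 1962 CPM, lay below shSYNCRIP replicates 3 and 4, at 4423 and 3643 CPM, so the groups overlapped. It was one of the only 2 members counted in shSYNCRIP replicate 4, with a share of 0.317% (95% Wilson interval 0.286% to 0.351%).

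miR-142-5p had 262, 304 and 675 counts in shCTR and 193, 0, 349 and 0 in shSYNCRIP. Its shCTR libraries lay close together, at 2138 ± 396 CPM (SD, n = 3), against 715 ± 852 CPM (SD, n = 4) for shSYNCRIP. The groups did not overlap, every shSYNCRIP library being below every shCTR one, but narrowly: shSYNCRIP replicate 3 reached 1689 CPM and shCTR replicate 3 had 1754 CPM. As a share of all counts the same libraries stood at 0.145% (95% Wilson interval 0.130% to 0.161%) and 0.174% (0.161% to 0.187%), intervals that met at their ends. It was the only tested member without overlap in this direction, which 4.27% of all 117 tested miRNAs had.

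The other strand of that hairpin, miR-142-3p, was scattered. Its counts were 9, 465 and 1 in shCTR and 19, 5, 527 and 0 in shSYNCRIP. shCTR replicate 2 and shSYNCRIP replicate 3 were high, at 3236 and 2550 CPM, and the other 5 libraries had at most 172 CPM.

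miR-342-3p, which lies in EVL and was among the miRNAs the study followed by RT-qPCR, had 3, 861 and 1349 counts in shCTR and 5, 0, 573 and 0 in shSYNCRIP. It averaged 3176 ± 2995 CPM (SD, n = 3) and 701 ± 1382 CPM (SD, n = 4). Nearly all of it was in shCTR replicates 2 and 3 and shSYNCRIP replicate 3, while shCTR replicate 1 and shSYNCRIP replicate 1 were alike at 29.1 and 30.3 CPM.

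miR-146a-5p, the NF-κB feedback miRNA, was nearly absent. Its 323 counts in shCTR replicate 3 (0.0832% of the library, 95% Wilson interval 0.0746% to 0.0928%) stood against 0 in both other shCTR libraries and 3, 2, 9 and 0 in shSYNCRIP. Alone of the 8, it was removed by the low-count filter and not tested.

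The 2 endothelial strands were the most abundant of the 8 on average in shCTR. miR-126-5p had 1117, 2268 and 3889 counts in shCTR and 1902, 2, 2517 and 651 in shSYNCRIP, or 12247 ± 3085 CPM (SD, n = 3) and 7573 ± 5607 CPM (SD, n = 4). shSYNCRIP replicates 1 and 3, at 11530 and 12181 CPM, lay within the shCTR range of 10107 to 15784 CPM, and shSYNCRIP replicate 2 stood far below at 68.8 CPM.

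miR-126-3p, which targets inhibitors of VEGF signalling in endothelial cells, had 8, 2781 and 7359 counts in shCTR and 1084, 5, 1036 and 0 in shSYNCRIP. In shCTR replicates 2 and 3 it took 1.89% and 1.90% of all counts and ranked 12 in both. In shCTR replicate 1 it was at 77.7 CPM, below the 6571 and 5014 CPM of shSYNCRIP replicates 1 and 3 and the 172 CPM of shSYNCRIP replicate 2. The group means were 12852 ± 11064 CPM (SD, n = 3) and 2939 ± 3356 CPM (SD, n = 4), so the spread within shCTR exceeded the difference of the means.

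**Figure D1:**
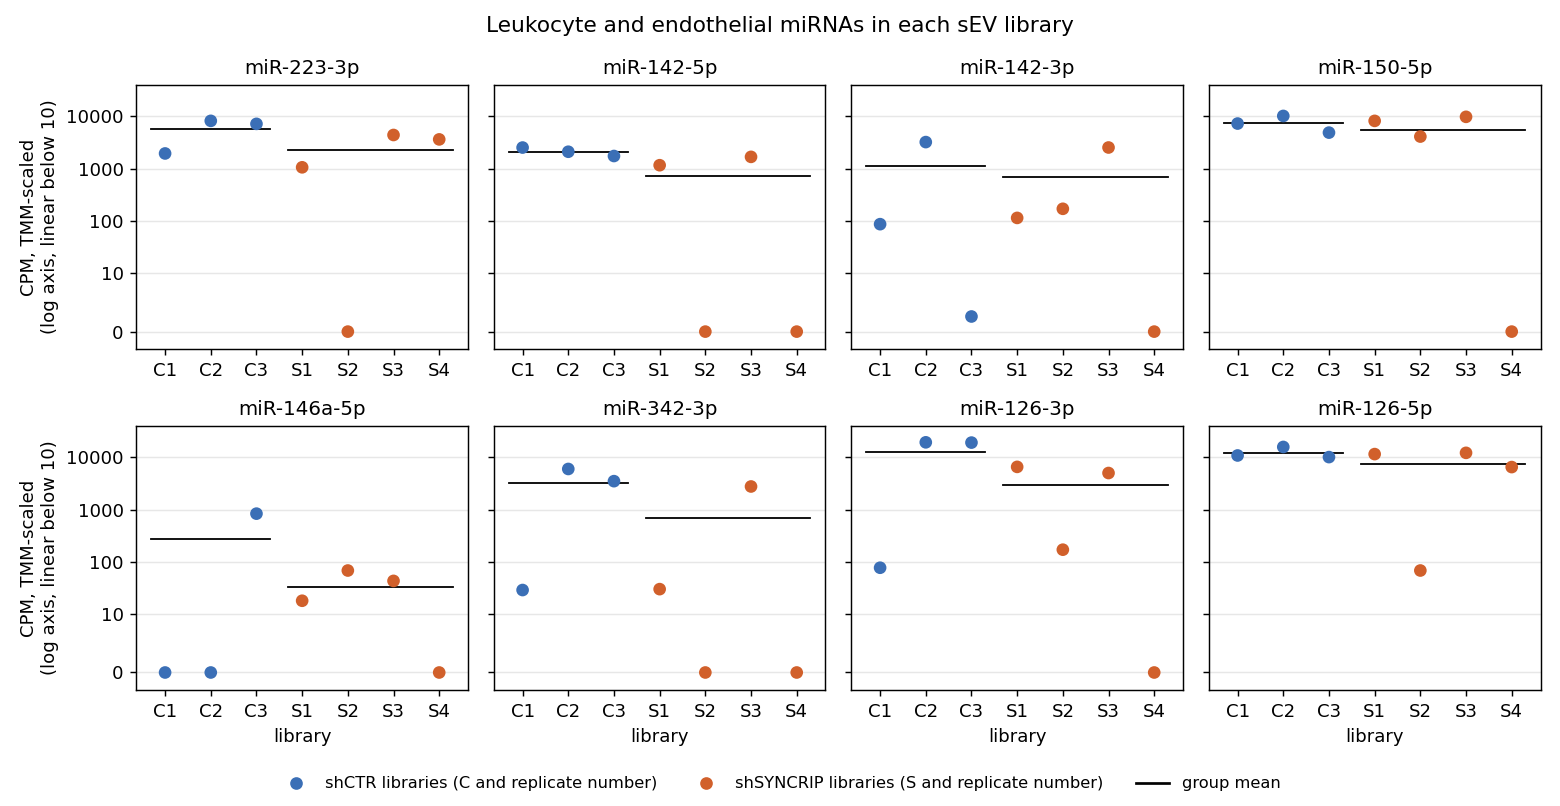
TMM-scaled CPM of each miRNA (y axis, logarithmic above 10 and linear below) in the 3 shCTR libraries (C1 to C3, blue) and the 4 shSYNCRIP libraries (S1 to S4, orange), with a line at each group mean. Only miR-142-5p has all 4 shSYNCRIP points below all 3 shCTR points, and S2 and S4 hold most of the points near 0.

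The values fell into high and near-zero ones rather than a graded range. Of the 56 values of the 8 miRNAs in 7 libraries, 33 were at 100 counts or more, 16 at 3 or fewer and 7 in between. Over the 117 tested miRNAs, 61.7% of the values were at 100 counts or more and 19.5% between 4 and 99, against 58.9% and 12.5% for the 8. Near-zero values were not confined to shSYNCRIP: shCTR replicate 1 held at most 9 counts of miR-142-3p, miR-146a-5p, miR-342-3p and miR-126-3p, beside 1117 of miR-126-5p and 753 of miR-150-5p.

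Because both strands of a hairpin are made together, the balance of 3p and 5p was read next in each library. For miR-126 the 3p strand made up 55.1% and 65.4% of the counts of both strands in shCTR replicates 2 and 3 but 0.711% (95% exact binomial interval 0.307% to 1.40%) in shCTR replicate 1, where 8 of 1125 counts were 3p. In shSYNCRIP replicates 1 and 3 it made up 36.3% (34.6% to 38.1%) and 29.2% (27.7% to 30.7%). In shSYNCRIP replicate 4 there were 0 of 651, which allows up to 0.461%, and shSYNCRIP replicate 2 held only 7 counts. The strand balance thus differed between libraries of 1 group by far more than the binomial intervals of the reads. Amplified reads are not independent molecules, so these intervals can be too narrow. The shCTR range spanned the values of shSYNCRIP replicates 1 and 3.

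For miR-142 the 3p strand made up 60.5% (95% exact binomial interval 56.9% to 63.9%) in shCTR replicate 2 and 60.2% (56.8% to 63.4%) in shSYNCRIP replicate 3. It made up 3.32% in shCTR replicate 1, 0.148% in shCTR replicate 3 and 8.96% in shSYNCRIP replicate 1. shSYNCRIP replicate 2 held 5 counts, all 3p, and shSYNCRIP replicate 4 held none of either strand. Libraries high in 1 strand were therefore not regularly high in the other, in either group.

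The 3p share ranged over 65.4 percentage points between libraries for miR-126 and over 60.3 for miR-142, taking libraries with at least 100 counts of both strands together. Of 72 hairpin names with at least 3 such libraries, 55 had a range under 10 points and 11 one over 50, and the median range was 0. In the 11 whose minor strand held at least 10% of the summed counts, a choice that the swings themselves affect, the median was 81.8 points. miR-223, whose 5p strand was counted in 2 libraries only, had 253 counts of miR-223-5p beside 176 of miR-223-3p in shSYNCRIP replicate 1, and 1 beside 202 in shCTR replicate 1.

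**Figure D2:**
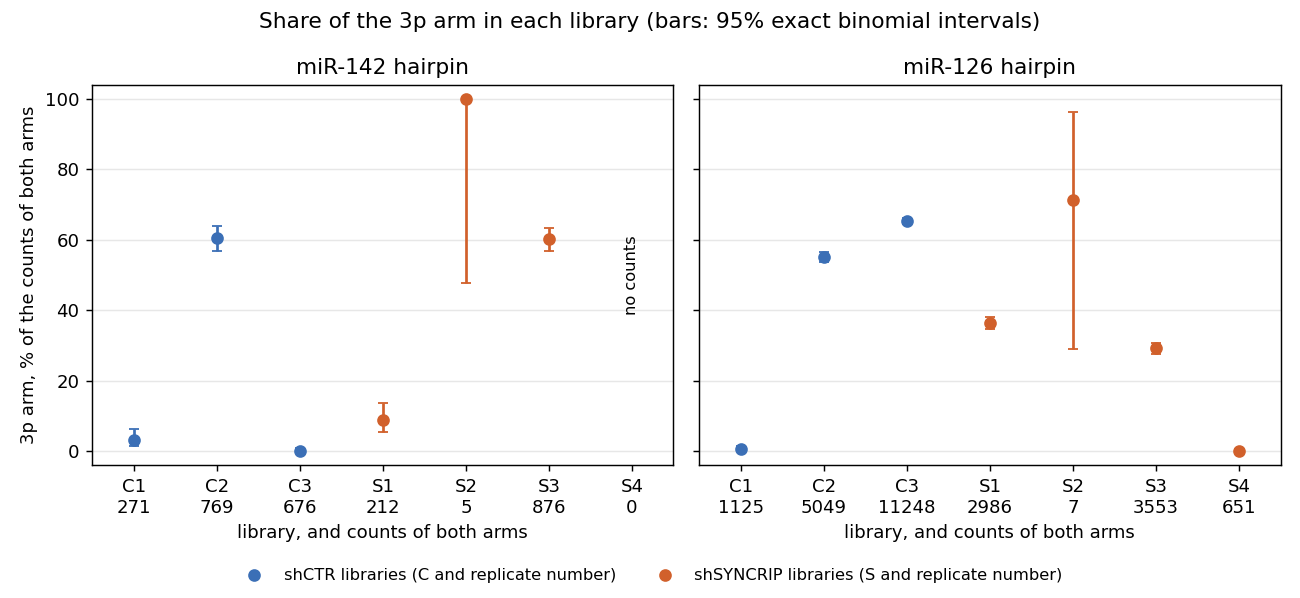
Percent of the counts of both strands that came from the 3p strand (y axis) for the miR-142 and miR-126 hairpins in each library (C1 to C3 shCTR, blue, and S1 to S4 shSYNCRIP, orange), with 95% exact binomial intervals and the summed counts under each library. The miR-126 share runs from 0.711% to 65.4% within shCTR alone, and the wide bars of S2 rest on 5 and 7 counts.

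Over the 7 libraries, the correlation of log2 CPM between miR-126-3p and miR-126-5p was r = 0.38 (exact permutation test over 5040 pairings, p = 0.417, adjusted over 28 pairs 0.730) and rho = 0.61 (exact permutation p = 0.167, adjusted 0.373). Without the libraries farthest from the median of miR-126-3p, shSYNCRIP replicate 4 and shCTR replicate 1, r was 0.95. The libraries left include shSYNCRIP replicate 2, far below the rest in both strands, with 5 counts of miR-126-3p and 2 of miR-126-5p. The value of r thus depended on which libraries were kept, and r without shSYNCRIP replicate 2 as well was not computed. Between miR-142-5p and miR-142-3p r was 0.40 (exact permutation p = 0.444, adjusted 0.730) and rho was 0.14 (exact permutation p = 0.783, adjusted 0.830), and r was 0.12 without shSYNCRIP replicates 2 and 4. Of the 28 pairs of the 8 miRNAs, 24 had a positive r, with a median of 0.46, and 0 had an adjusted p under 0.05 for r (smallest 0.244) or rho (smallest 0.0778, miR-150-5p with miR-126-5p, rho = 0.96). All pairs rest on the same 7 libraries, and the miRNAs of a library share its depth. Groups of 3 and 4 libraries are too small for values within a group.

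The main question was whether the sEV content differed between shSYNCRIP and shCTR. Of the 7 miRNAs tested, 3 were lower in shSYNCRIP by limma-voom at the cutoffs of the study. These are a fold change beyond 0.5, read here on the log2 scale, with a nominal p under 0.1. The members called were miR-142-5p, miR-342-3p and miR-126-3p, and 0 were higher. At these cutoffs 17.9% of all 117 tested miRNAs were called, 12.8% lower and 5.13% higher. None of the 7 passed an adjusted p under 0.05 in limma-voom (2.56% of all tested), in the quasi-likelihood test of edgeR (0% of all tested) or in DESeq2 (2.56%, with a p for 5 of the 7), and 0 of the 7 had an unadjusted quasi-likelihood p under 0.05 (1.71% of all tested). With all 7 libraries the nominal calls therefore did not hold after correction.

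The limma-voom log2 fold change of miR-142-5p was -4.50 (standard error 2.00, limma-voom adjusted p 0.367). By quasi-likelihood it was -1.57, with an edgeR adjusted p of 0.983. The estimates of miR-342-3p were -5.06 (limma-voom adjusted p 0.398) and -2.17 (edgeR adjusted p 0.983). miR-126-3p stood at -4.33 (standard error 2.16, limma-voom adjusted p 0.440) and -2.13 (edgeR adjusted p 0.983). Each of these miRNAs had a count of 0 in shSYNCRIP replicate 4, and miR-142-5p and miR-342-3p also in shSYNCRIP replicate 2. For a count of 0, limma-voom takes the log of a small added offset. How far the large limma-voom values depend on that offset was not tested.

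Values of the 4 members that were not called ranged widely. By limma-voom, the log2 fold change was -2.85 for miR-223-3p (adjusted p 0.633), -1.94 for miR-150-5p (adjusted p 0.763), -0.69 for miR-126-5p (adjusted p 0.992) and 0.10 for miR-142-3p (adjusted p 0.992). The quasi-likelihood values were -1.34, -0.43, -0.69 and -0.64, each with an edgeR adjusted p of 0.983. Both strands of miR-126 and both of miR-142 thus gave 1 called and 1 uncalled strand each, and the difference between strands was not tested.

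The limma-voom log2 fold change was below 0 for 6 of the 7, with a median of -2.85, and for 52.1% of all tested miRNAs, with a median of -0.07. By quasi-likelihood it was below 0 for all 7, with medians of -1.34 and 0.09. Passing the filter needed enough counts in 3 libraries, the number in the shCTR group, so these counts describe the members that passed and support no direction.

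The calls rested on a few libraries. Without shSYNCRIP replicate 2, 0 of the 7 were called, against 16 of all 105 miRNAs tested. The log2 fold changes of miR-142-5p, miR-342-3p and miR-126-3p stayed large in that fit, at -3.58, -4.32 and -4.13 (limma-voom adjusted p 0.703 each). Without shSYNCRIP replicate 4 they were -3.23, -4.14 and -1.72. In that fit only miR-223-3p was called (log2 fold change -4.26, limma-voom adjusted p 0.456), against 17 of all 116. Without shCTR replicate 2 (18 of all 135) or without shCTR replicate 3 (16 of all 131) only miR-142-5p was. With shSYNCRIP replicates 2 and 4 both left out, 0 were called, against 18 of all 131, and the limma-voom log2 fold changes became -0.62 for miR-142-5p, -2.33 for miR-342-3p and -1.08 for miR-126-3p, with adjusted p values of 0.968, 0.937 and 0.920. When each library was omitted in turn, in 7 fits, miR-142-5p was called in 5, miR-126-3p in 3 and miR-342-3p in 2 of the 6 in which it was tested. Of the members not called with all libraries, miR-223-3p was called in 3 of these fits and miR-150-5p in 1.

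**Figure D3:**
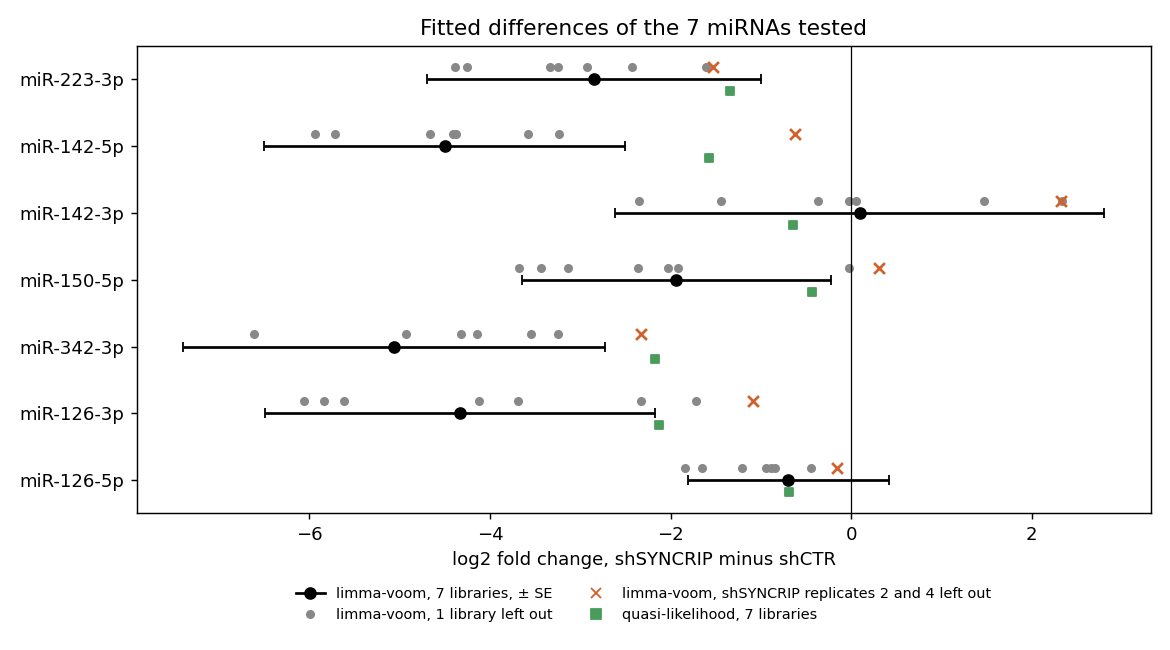
Log2 fold change of shSYNCRIP relative to shCTR (x axis) for the 7 tested miRNAs, as limma-voom estimates with standard errors (black), estimates with 1 library left out (grey), with shSYNCRIP replicates 2 and 4 both left out (crosses) and quasi-likelihood estimates (green squares). The crosses of miR-142-5p and miR-126-3p lie at -0.62 and -1.08, far right of the black points at -4.50 and -4.33.

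Summed over the 6 leukocyte miRNAs, the share of all miRNA counts was 1.16%, 2.91% and 1.81% in shCTR and 1.16%, 0.425%, 1.83% and 0.317% in shSYNCRIP. The means were 1.96% ± 0.89 (SD, n = 3) and 0.933% ± 0.705 (SD, n = 4). shSYNCRIP replicates 1 and 3 lay at the level of shCTR replicates 1 and 3, and shSYNCRIP replicates 2 and 4 below every shCTR library. Without both of these the difference of the means, shSYNCRIP minus shCTR, moved from -1.03 to -0.464 percentage points.

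The 2 endothelial strands together took 1.06%, 3.44% and 2.90% in shCTR and 1.98%, 0.0234%, 1.47% and 0.566% in shSYNCRIP, with means of 2.46% ± 1.25 (SD, n = 3) and 1.01% ± 0.88 (SD, n = 4). The groups overlapped again, with shCTR replicate 1 below shSYNCRIP replicates 1 and 3. The difference moved from -1.45 to -0.737 percentage points without shSYNCRIP replicates 2 and 4.

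Markers of 2 other cell types were read alongside. The erythroid list took far more of every library, 8.54% to 18.7%, with miR-486-5p its most counted member in each library (23181 counts beside 6279 of miR-451a in shSYNCRIP replicate 3), while miR-144-3p and miR-144-5p were counted in shSYNCRIP replicate 3 only. The hepatocyte list took 0.272% to 1.49%, with miR-122-5p, the defining miRNA of hepatocytes, between 313 and 1664 counts in each library and miR-192-5p at 0 or 1. In shSYNCRIP replicate 2 the leukocyte and endothelial shares were low while the hepatocyte share was 1.49%, its highest. That share was nearly all miR-122-5p, with 442 counts. There miR-194-5p and miR-148a-3p had 1 count each, near zero like most of the leukocyte and endothelial miRNAs, and miR-192-5p had 0. In shSYNCRIP replicate 4 all lists but the endothelial were at their lowest. The part of these library differences in the results above was not tested beyond leaving out the libraries.

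**Figure D4:**
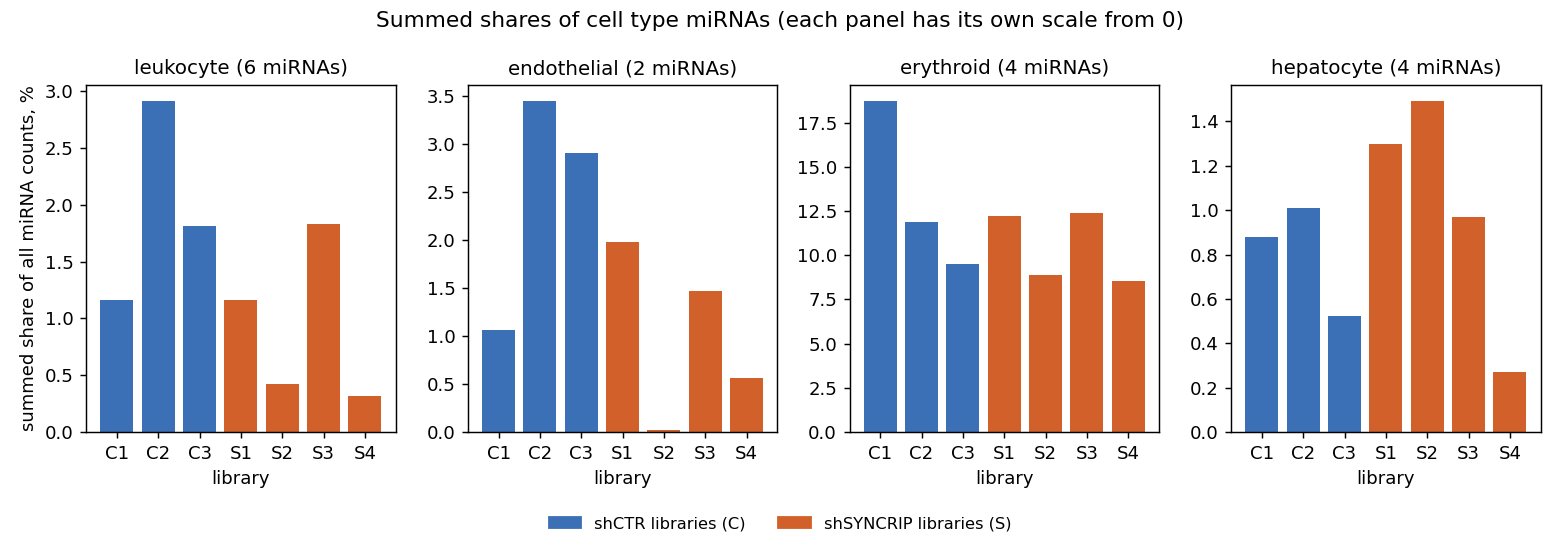
Summed share of all miRNA counts (y axis, percent, each panel from 0 with its own scale) of the leukocyte, endothelial, erythroid and hepatocyte miRNAs in the shCTR libraries (C1 to C3, blue) and the shSYNCRIP libraries (S1 to S4, orange). S2 and S4 hold the 2 lowest leukocyte shares, 0.425% and 0.317%, and S2 has an endothelial share of 0.0234%.

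Other miRNAs of the same hairpins and roles were sparse. Of 10 listed passenger strands and immune miRNAs, 7 had any count and 1, miR-181a-5p, was tested. miR-181a-5p, which tunes T cell receptor signalling, had 416, 551 and 2127 counts in shCTR and 1860, 27, 1458 and 0 in shSYNCRIP (log2 fold change -2.31, limma-voom adjusted p 0.763). The quasi-likelihood estimate had the other sign, 0.11 (edgeR adjusted p 0.983). It was thus also lowest in shSYNCRIP replicates 2 and 4.

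miR-155-5p, induced on lymphocyte activation, had 273 counts in shCTR replicate 2 and at most 2 elsewhere. miR-146b-5p, the near copy of miR-146a-5p, had 287 counts in shSYNCRIP replicate 1 and at most 2 elsewhere. The 323 counts of miR-146a-5p lay in shCTR replicate 3, where miR-146b-5p had 0. miR-181b-5p had between 0 and 27 counts, miR-150-3p and miR-342-5p at most 2, and miR-146a-3p, miR-146b-3p and miR-155-3p had 0 in all 7 libraries.

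The tested miRNAs outside the 8 whose log2 CPM followed the summed leukocyte miRNAs most closely over the 7 libraries were miR-451a (Pearson r = 0.932), miR-106b-5p (0.921) and miR-103a-3p (0.894). miR-451a, a red cell miRNA, had 236, 1241 and 2803 counts in shCTR and 1042, 1, 6279 and 0 in shSYNCRIP. For miR-126-3p they were miR-194-5p (0.937), miR-107 (0.934) and miR-103a-3p (0.898). miR-194-5p had 2, 701 and 363 counts in shCTR and 463, 1, 1120 and 0 in shSYNCRIP, so it shared with miR-126-3p the near-zero values in shCTR replicate 1 and shSYNCRIP replicates 2 and 4. These r values describe 7 libraries and were picked as the highest of all tested miRNAs. The miRNAs of a library share its depth.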

How the data were processed

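Raw read counts per mature miRNA were used as the authors deposited them, without normalization. The authors had trimmed reads with FastqToolkit, filtered them with Cutadapt and counted forward reads on miRBase sequences with MiRDeep2. Columns were assigned to samples through the titles, and the libraries are biological replicates. The members and lists were chosen with earlier results of these data known.

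Counts were filtered with filterByExpr of edgeR 4.0.16 (117 of 2656 miRNAs kept), scaled by TMM and compared with limma-voom (limma 3.58.1, R 4.3.3), as in the study's methods. The edgeR quasi-likelihood test and DESeq2 1.42.0 were run beside it. P values were adjusted by Benjamini-Hochberg over all tested miRNAs. Correlations used log2 CPM with a prior count of 2. Scripts were tested on simulated data. Fixed names were the 8 members, 10 related miRNAs and the 3 miRNAs most like each pattern, while erythroid and hepatocyte examples were taken after their values were seen. Same-numbered shCTR and shSYNCRIP libraries were not treated as pairs. Alternatives were other size factors, filters, tests and cutoffs, a replicate block, another prior count and libraries left out.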

Additional observations from a re-analysis of the deposited data

Results flagged for a closer look

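In shSYNCRIP, 10 measures (the log2 CPM of the 8 miRNAs and the 2 summed shares) were searched for a library far from the other 3. Of these, 2 were singled out, where a rate of 1 in 20 gives about 0.5. That rate holds for independent, normally distributed values. These include counts of 0 and sums of the same miRNAs, so no excess can be read from it. miR-150-5p was far lower in shSYNCRIP replicate 4 (log2 CPM 3.63), the value of a count of 0 with the prior count added. miR-126-5p was far lower in shSYNCRIP replicate 2 (log2 CPM 6.34), with 2 counts. Depth was 29863 counts in shSYNCRIP replicate 2 and 114983 in shSYNCRIP replicate 4, and its part in these values was not tested.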

How the results depend on the processing

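Leaving out shSYNCRIP replicates 2 and 4 together was added after seeing the data. The number of members called by limma-voom, 3, became 0 with the quasi-likelihood test (8 of all 117 miRNAs called), 0 with DESeq2 (12 of 117), 0 at an adjusted p under 0.1 (4 of 117), 0 with the replicate block (13 of 117) and 0 without shSYNCRIP replicates 2 and 4 (18 of 131), and ranged from 0 to 4 with 1 library left out. Without shCTR replicate 1, 4 members were called (miR-126-3p, miR-142-5p, miR-223-3p and miR-342-3p), against 20 of all 139. Without shSYNCRIP replicate 1 the 3 members called with all libraries were called again, against 19 of all 98. Without shSYNCRIP replicate 3, 4 of 6 tested members were called (miR-126-3p, miR-142-5p, miR-150-5p and miR-223-3p). In that fit 22 of all tested miRNAs were called. For the other tests and cutoffs the cause was not tested. DESeq2 gave no p for miR-142-3p and miR-342-3p. With at least 10 counts in every library no member was left to test. The same-numbered libraries did not deviate together (r = -0.0641, -0.033 and 0.0883), and shSYNCRIP replicate 4 has no shCTR partner, so the replicate block fit takes its group difference from the other 6 libraries. The quasi-likelihood count stayed at 0 in 13 alternatives, with a smallest adjusted p of a member from 0.461 to 0.999. Without a filter 87 of 406 miRNAs were called by limma-voom, against 21 of 117.

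Of 109 alternative log2 fold changes of the tested members, 72 kept direction and side of the cutoffs, 22 lost the call, 7 gained one and 8 changed sign. For miR-142-3p (0.10) these were -0.17 with DESeq2 size factors, -0.64 by quasi-likelihood, and -2.35, -0.02, -0.36 and -1.44 without shCTR replicate 3 and shSYNCRIP replicates 1, 2 and 3. Its estimates with 1 library left out ran from -2.35 to 2.33. For miR-150-5p (-1.94) they were 0.44 with the replicate block and 0.31 without shSYNCRIP replicates 2 and 4. With 1 library left out, the difference in summed share ranged from -1.43 to -0.548 points for the leukocyte and from -2.16 to -0.966 for the endothelial miRNAs. With the other prior count or library size alone, the strand correlations were between 0.33 and 0.41.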
